A study of Mus musculus with 2 samples.

Results

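Nuclear factor I (NFI) is a family of 4 transcription factors in the mouse, encoded by *Nfia*, *Nfib*, *Nfic* and *Nfix*. All 4 genes were measured among the 27998 genes counted in single cells of 2 small cell lung cancer (SCLC) tumors. The members were taken by gene symbol, and they were chosen with earlier results of these data known. Their unique molecular identifiers (UMIs, the tags that count captured RNA molecules) were summed over barcodes with more than 500 detected genes.

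Each tumor came from the lung of a different mouse of mixed C57BL/6, 129/SVJ and 129/SvOla background, aged 8 to 9 months. The label of both mice reads Rb-/-, Trp53-/- and Rbl2-/-, the triple knockout (TKO) model, and both carried a Rosa26 membrane-Tomato or membrane-GFP reporter. The label of tumor 1 has extra characters after the reporter's name, and what they stand for is not given. Tumors were induced with an adenovirus in which the CMV promoter drives Cre in the cells that the virus enters, and were harvested 7 months later. The paper that reported these tumors describes the knocked-out genes as conditionally deleted by Cre in lung cells. Cells without Cre, such as other cell types in the tumor, therefore need not lack them. No untreated lung was sequenced, and no group differs from another by design: tumor 1 is the library labelled TKO1 and tumor 2 the library labelled TKO2. A single dissected tumor per mouse was digested, sorted to single live cells and made into 1 droplet library, so a difference between mice, between tumors and between libraries cannot be told apart.

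NFI proteins bind DNA as dimers, through an amino-terminal domain that is alike in all members, and can raise or lower transcription. They act in lung and brain development, where *Nfib* is needed for maturation of the distal lung epithelium and *Nfia* and *Nfib* for the formation of glia. *Nfib* is amplified or strongly expressed in part of mouse and human SCLC, and it promotes metastasis and opens chromatin in mouse models of the disease. *Nfix* is best known from muscle and neural stem cells and *Nfic* from tooth root formation.

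The members differ enough in sequence for their reads to be kept apart. The window shown is the 90 bases of coding sequence, without gaps, in which the 4 genes are most alike, found in exon 2 of the principal GENCODE M21 transcript of each gene. It is given on the coding strand in GRCm38, and capitals mark bases that differ from *Nfib*.
*Nfib*: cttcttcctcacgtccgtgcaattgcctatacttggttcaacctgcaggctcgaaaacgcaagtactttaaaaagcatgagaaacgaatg
*Nfia*: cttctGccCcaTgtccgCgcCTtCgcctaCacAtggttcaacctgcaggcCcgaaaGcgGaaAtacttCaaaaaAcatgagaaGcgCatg
*Nfic*: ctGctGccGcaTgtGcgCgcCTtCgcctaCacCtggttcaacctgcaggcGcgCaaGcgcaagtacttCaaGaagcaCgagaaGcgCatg
*Nfix*: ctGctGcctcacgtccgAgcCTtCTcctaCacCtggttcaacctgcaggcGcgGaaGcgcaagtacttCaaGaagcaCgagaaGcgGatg

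In GRCm38 the *Nfib* window is chr4:82498653-82498742 (minus strand), that of *Nfia* chr4:97783109-97783198 (plus), that of *Nfic* chr10:81420682-81420771 (minus) and that of *Nfix* chr8:84772199-84772288 (minus). Even there, 17 bases of *Nfia*, 19 of *Nfic* and 17 of *Nfix* differed from *Nfib*, and 67 of 90 were the same in all. Over the whole coding sequences, pairs of members were between 63.7% (*Nfib* and *Nfix*) and 70.2% (*Nfia* and *Nfix*) identical. Of the 31-base words in any annotated transcript, *Nfic* and *Nfix* shared 2, and no other pair shared any. None of the words within 500 bases of a transcript end, where droplet libraries take most reads, occurred in another member. *Nfia* (ENSMUSG00000028565) spans chr4:97772734-98118874, *Nfib* (ENSMUSG00000008575) chr4:82290173-82705750, *Nfic* (ENSMUSG00000055053) chr10:81396186-81455635 and *Nfix* (ENSMUSG00000001911) chr8:84699876-84800344. *Nfib* and *Nfia* therefore lie on the same chromosome, as does *Mycl*, and the other members do not.

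Other genes run through the members on the opposite strand. *G430095P16Rik* lies inside *Nfix* and had 28 UMIs in tumor 1 and 212 in tumor 2, and *Lyl1*, at the 3′ end of *Nfix*, had 3 and 8. *Gm11266*, inside *Nfib*, had 5 and 12. Whether counting used the strand is not given in the sources used here, and without it such reads cannot be told apart from those of the member.

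After the filters, 3193 of 4514 barcodes of tumor 1 and 3568 of 3816 of tumor 2 were retained, with 4566658 and 8105281 UMIs. The median was 1223 UMIs and 770 genes per cell in tumor 1 and 1960 UMIs and 1015 genes in tumor 2. The libraries shared 22 barcode sequences, 11 of them retained in both. Cells were clustered in each tumor separately and named from marker genes. Neuroendocrine-like cells, the main tumor cell type of SCLC, made up 63.8% of retained cells of tumor 1 and 94.7% of tumor 2. All 16 neuroendocrine markers were detected in both groups. The paper also describes a small population of a non-neuroendocrine SCLC subtype in each tumor. Summed, these markers reached 22284 CPM (UMIs of a gene per 1000000 UMIs of the library or group) in tumor 1 and 1925 CPM in tumor 2. Macrophage-like cells were 3.07% and 3.39%, and club-like cells, an airway secretory type, 3.29% of tumor 1. The club-like cluster had 6 of 8 club markers at least 4-fold above the other cells, but also 6 of 8 alveolar type 2 and 3 of 6 alveolar type 1 markers. *Sftpb*, *Sftpd* and *Ager*, genes of the alveolus, were among its 10 leading genes. Clusters 1 and 2 of tumor 1 (16.1% and 13.7%) and cluster 9 of tumor 2 (1.88%) stayed unnamed. In clusters 1 and 2 the ciliated marker *1110017D15Rik* led the cluster. Of 8 ciliated markers, 1 and 3 were at least 4-fold above the other cells. No neuroendocrine marker was among their 10 leading genes, as in clusters 3 to 6 of tumor 1 and every neuroendocrine-like cluster of tumor 2. Still, 14 and 15 neuroendocrine markers were at least 2-fold above the macrophage-like cells. The 63.8% of tumor 1 may therefore leave out neuroendocrine-like cells.

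*Nfib* was the most abundant member in both tumors. It had 672 UMIs in tumor 1, or 147 CPM (95% interval 136 to 159), and 1742 UMIs in tumor 2, or 215 CPM (205 to 225). The intervals of CPM are by the exact Poisson method and, like all intervals here, cover counting error only, because each tumor has 1 library and differences between tumors were not tested. *Nfic* had 388 UMIs in tumor 1 (85.0 CPM, 76.7 to 93.9) and 164 in tumor 2 (20.2 CPM, 17.3 to 23.6). *Nfix* had 237 UMIs in tumor 1 (51.9 CPM, 45.5 to 58.9) and 967 in tumor 2 (119 CPM, 112 to 127). *Nfia* was scarce in both, with 34 UMIs (7.45 CPM, 5.16 to 10.4) and 78 UMIs (9.62 CPM, 7.61 to 12.0). The order of levels was thus *Nfib*, *Nfic*, *Nfix*, *Nfia* in tumor 1 and *Nfib*, *Nfix*, *Nfic*, *Nfia* in tumor 2, and no neighbours in either order had overlapping intervals. A UMI marks 1 molecule whatever its length, so levels were not divided by length, but how well each gene is captured is not known.

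**Figure D1:**
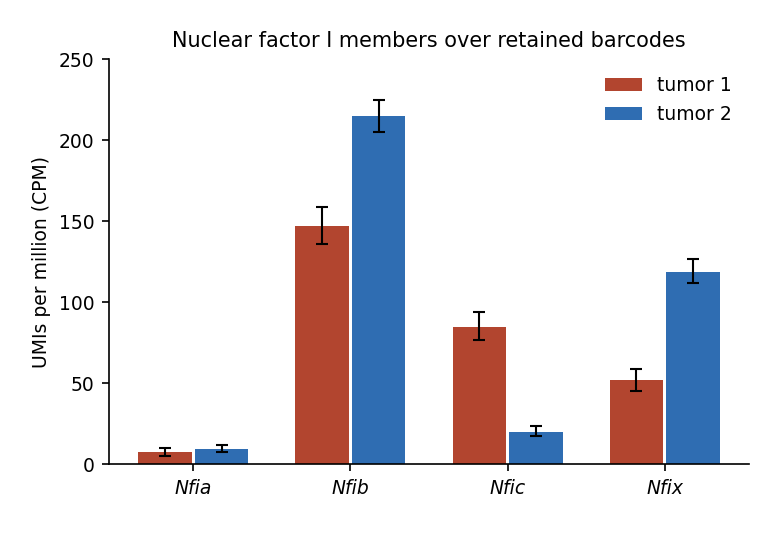
Level of each member in CPM (bars) over the retained barcodes of tumor 1 (red) and tumor 2 (blue), with exact Poisson 95% intervals for counting error. *Nfic* was at 85.0 CPM in tumor 1 and 20.2 in tumor 2, while *Nfix* was at 51.9 and 119 CPM.

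The members' sum differed less between the tumors than the members did. Together they had 1331 UMIs (291 CPM) in tumor 1 and 2951 UMIs (364 CPM) in tumor 2, a log2 ratio of tumor 1 to tumor 2 of -0.32 (exact conditional binomial interval -0.42 to -0.23). *Nfib* gave 50.5% of the family's UMIs in tumor 1 (47.8 to 53.2, exact Clopper-Pearson) and 59.0% in tumor 2 (57.2 to 60.8). *Nfic* gave 29.2% (26.7 to 31.7) in tumor 1 and 5.56% (4.76 to 6.45) in tumor 2, and *Nfix* 17.8% (15.8 to 20.0) and 32.8% (31.1 to 34.5). *Nfia* stayed close to the same share, at 2.55% and 2.64%.

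*Nfic* was 4.20-fold higher in tumor 1, a log2 ratio of 2.07 (1.80 to 2.34), and *Nfix* 2.30-fold higher in tumor 2, a log2 ratio of -1.20 (-1.41 to -0.99). The log2 ratio of *Nfib* was -0.55 (-0.68 to -0.42), 1.46-fold higher in tumor 2, and that of *Nfia* -0.37 (-1.0 to 0.23), whose interval holds 0. So 1 of 4 members was at least 2-fold higher in tumor 1, where 30.0% of the 13470 genes with at least 10 UMIs were, and 1 of 4 was at least 2-fold higher in tumor 2, where 12.3% were. The median over all these genes was 0.36. With TMM factors, which move that median to 0, 22.4% of genes were at least 2-fold higher in tumor 1 and 18.4% in tumor 2. Relative to that median, the members stood at -0.73 (*Nfia*), -0.90 (*Nfib*), 1.71 (*Nfic*) and -1.56 (*Nfix*). *Nfic* ranked above 87.3% of the genes and *Nfix* above 9.87%, so many genes differed more between these tumors. *Mycn*, a MYC family gene, had 11.8 CPM in tumor 1 and 2791 CPM in tumor 2, and *Mycl* 190 and 33.7 CPM.

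Genes within 2 Mb of each member were compared between the tumors. Of all genes tested, 30.0% were at least 2-fold higher in tumor 1 and 12.3% in tumor 2, with a median log2 ratio of 0.36. Of the 118 genes tested within 2 Mb of *Nfic*, 36 were at least 2-fold higher in tumor 1 and 12 in tumor 2, with a median log2 ratio of 0.33 against 2.07 for *Nfic*. Of the 72 near *Nfix*, 21 were higher in tumor 1 and 7 in tumor 2, with a median of 0.11 against -1.20 for *Nfix*. Near *Nfib*, 2 of 10 were higher in tumor 1 and 4 in tumor 2, with a median of -0.49 against -0.55 for *Nfib*. They ran from -4.03 (*Mpdz*) to 2.06 (*Ttc39b*). Their median was -0.54 within 1 Mb, -0.11 within 5 Mb and -0.85 with TMM factors, where *Nfib* was at -0.91. Near *Nfia*, 3 of 12 were higher in tumor 1 and 0 in tumor 2, with a median of 0.43 against -0.37 for *Nfia*.

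Among the neuroendocrine-like cells alone, the pattern of the tumors was the same. In tumor 1 they had 155 CPM of *Nfib* (141 to 170), and in tumor 2 221 CPM (210 to 231). *Nfic* had 85.0 (74.6 to 96.4) and 18.8 CPM (15.9 to 22.1), *Nfix* 43.6 (36.2 to 51.9) and 122 CPM (114 to 130), and *Nfia* 7.38 (4.57 to 11.3) and 9.54 CPM (7.49 to 12.0). *Nfic* was higher in every neuroendocrine-like cluster of tumor 1 (44.3 to 160 CPM) than in any of tumor 2 (12.0 to 29.8 CPM). *Nfix* was lower in every such cluster of tumor 1 (2.94 to 53.9 CPM) than in any of tumor 2 (102 to 137 CPM). The ranges of *Nfib*, 143 to 177 CPM in 5 clusters of tumor 1 and 136 to 346 CPM in 8 of tumor 2, overlapped. Clusters of 1 library are not replicates, and clustering used all genes, so these ranges are a description.

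**Figure D2:**
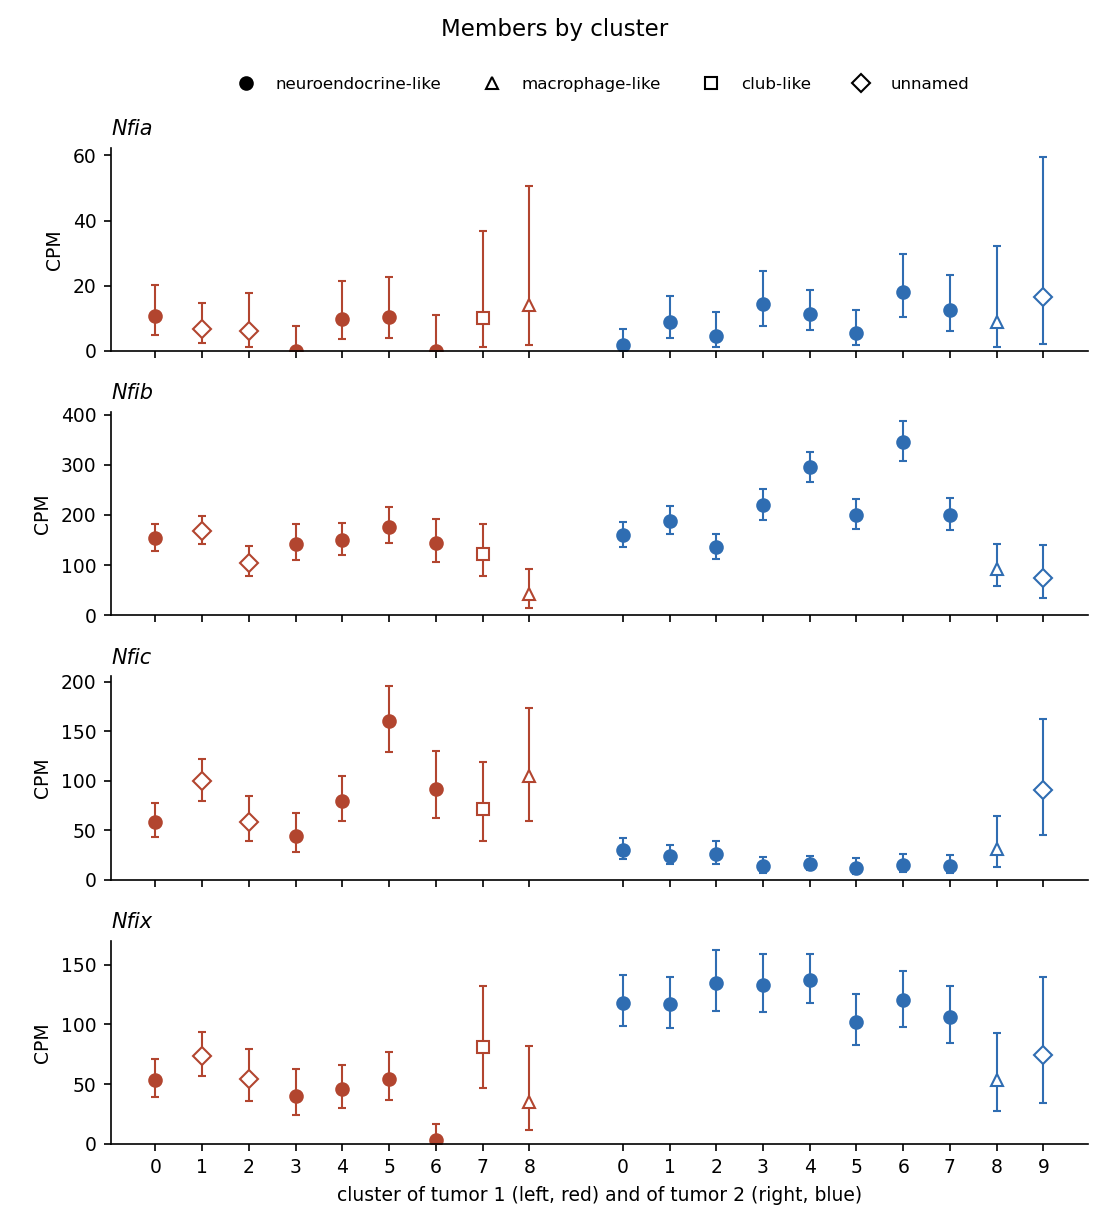
Level of each member in CPM (one panel per gene) in every cluster of tumor 1 (red) and tumor 2 (blue), with exact Poisson 95% intervals for counting error. Filled circles are neuroendocrine-like clusters, triangles macrophage-like, the square club-like and diamonds unnamed. *Nfix* fell to 2.94 CPM in cluster 6 of tumor 1, and *Nfib* reached 346 CPM in cluster 6 of tumor 2.

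In the unnamed clusters of tumor 1, most member levels had intervals that overlapped those of its neuroendocrine-like cells. Cluster 1 had 168 CPM of *Nfib*, 99.4 of *Nfic* and 73.4 of *Nfix*, and cluster 2 had 105, 58.5 and 54.5 CPM. Intervals did not overlap for *Nfix* in cluster 1 (56.7 to 93.6, against 36.2 to 51.9). Nor did they for *Nfib* in cluster 2 (78.4 to 138, against 141 to 170). The 67 cells of cluster 9 of tumor 2 were led by *Calca*, *Resp18* and *Wfdc2*. At least 4-fold above the other cells were 5 of 16 neuroendocrine, 7 of 8 club and 5 of 8 ciliated markers. These cells had 90.4 CPM of *Nfic* (45.1 to 162, 11 UMIs), within the range of tumor 1 and above the other clusters of tumor 2. That interval overlapped the one of the macrophage-like cells of tumor 2 (31.1 CPM, 12.5 to 64.0). In cluster 9, *Nfib* had 74.0 CPM (33.8 to 140) and *Nfix* 74.0 CPM (33.8 to 140), from 9 UMIs each. Of the barcode sequences that the libraries share, 21 were retained in tumor 2 and 1 of them was in an unnamed cluster.

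*Nfix* was nearly missing from 1 group of neuroendocrine-like cells. Cluster 6 of tumor 1 (233 cells, led by *Mycl*, *Pabpc4* and *Sfrp5*) had 1 *Nfix* UMI, or 2.94 CPM (upper limit 16.4). The other neuroendocrine-like clusters of that tumor had 123 UMIs, or 49.1 CPM, and none of them was under 40.1 CPM. The log2 ratio was -4.06 (-9.37 to -1.55), where the median of 11030 genes was -0.21 and 735 genes had a lower ratio, genes at 0 UMIs in the cluster included. *Nfib* (49 UMIs, 144 against 156 CPM) and *Nfic* (31 UMIs, 91.3 against 84.2 CPM) had log2 ratios of -0.12 (-0.58 to 0.31) and 0.12 (-0.48 to 0.67). *Nfia* had 0 UMIs in this cluster, which allows up to 8.83 CPM, against 8.38 CPM in the others, so no difference was detectable at this depth. Counting *Nfia* at 0 UMIs, 2 of 4 members were at least 2-fold lower, where 21.0% of all genes were at least 2-fold lower and 5.58% at least 2-fold higher. Since the cluster was chosen from its values, none of this is a test.

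The genes beside *Nfix* were not lower to the same degree. Of the 63 tested within 2 Mb, 11 were at least 2-fold lower in cluster 6 and 1 was higher. Over all genes, 21.0% were lower by that much and 5.58% higher. The median log2 ratio of the 63 was -0.15, where that of all genes was -0.21. Summed, the 63 neighbours gave 3291 UMIs in the cluster and a log2 ratio of -0.40 (-0.46 to -0.35). Of their 32125 UMIs in the other clusters, *Ier2* gave 8472 and *Junb* 7661, with log2 ratios of -0.64 and -1.05. The sum thus rests in large part on these genes, and it was not computed without them. *Trmt1*, a tRNA methyltransferase and the nearest tested gene on one side, had 29.4 against 21.5 CPM (10 UMIs in the cluster). *Dand5*, an extracellular antagonist of TGF-beta family signals and the nearest on the other side, had 2.94 against 9.97 CPM, a log2 ratio of -1.76 (-7.12 to 0.85) from 1 and 25 UMIs. *Gadd45gip1*, a mitochondrial protein next to it, had 100 against 75.4 CPM. *G430095P16Rik*, inside *Nfix*, had 2.94 against 4.79 CPM, from 1 and 12 UMIs. *Junb* and *Ier2*, immediate early genes of the same region, had 1481 against 3056 CPM and 2175 against 3380 CPM. At fixed depth, the 42 cells of tumor 1 holding 3 or more *Mycl* UMIs had 0 *Nfix* UMIs, against 63 in 1378 others. This limit was set after the values were seen. The interval of that ratio reached 0.98 on the log2 scale, so the cells alone do not show a lower level. At other clustering resolutions the cluster with most *Mycl* kept 1 *Nfix* UMI, in 224 and 235 cells.

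**Figure D3:**
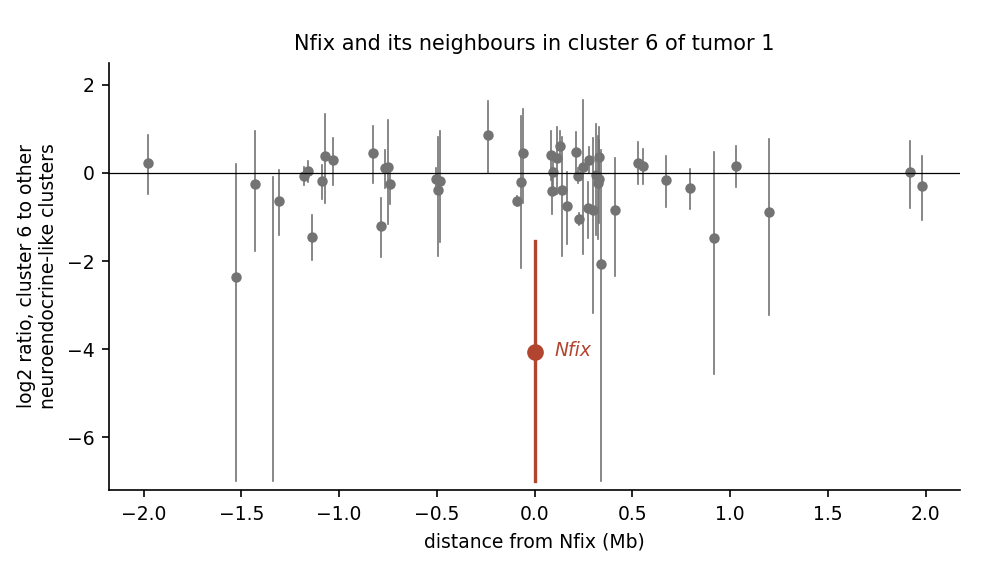
Log2 ratio of cluster 6 to the other neuroendocrine-like clusters of tumor 1 for *Nfix* (red) and the 52 neighbours with at least 30 UMIs (grey), by distance from *Nfix* in Mb. Points are ratios and lines their exact intervals for counting error, cut at the lower edge of the plot; 1 neighbour, *Clgn*, with 0 UMIs in the cluster, has a line and no point. *Nfix*, at -4.06, lay below the other plotted points.

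*Nfib* was highest in a cluster of tumor 2. Cluster 6 of that tumor (309 cells, led by *Spp1*, *Vtn* and *Id3*) had 303 *Nfib* UMIs, or 346 CPM (308 to 387), against 205 CPM in the other neuroendocrine-like clusters, a log2 ratio of 0.75 (0.57 to 0.94). *Nfia* was also higher there, with 16 UMIs and 18.2 against 8.43 CPM, a log2 ratio of 1.11 (0.22 to 1.93). *Nfic* had 14.8 against 19.3 CPM and *Nfix* 120 against 122 CPM, with intervals that hold 0. At least 2-fold higher was thus 1 of 4 members, *Nfia*, where 7.75% of 11555 genes were higher and 9.74% lower. The 10 tested neighbours of *Nfib* summed to a log2 ratio of 0.03 (-0.09 to 0.14) in the same cluster. The 11 neighbours of *Nfia* also summed to 0.03 (-0.11 to 0.16).

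The next highest *Nfib* level was in cluster 4 of tumor 2, led by *Ccnb1*, *Ube2c* and *Plk1*, genes of mitosis, with 390 UMIs or 295 CPM (266 to 325). Cluster 7 of tumor 2, led by *Nusap1*, *Cenpf* and *Cdca3*, also genes of mitosis, was not high. It had 158 *Nfib* UMIs or 200 CPM (170 to 233), against 221 CPM in all neuroendocrine-like cells of that tumor. The cells of cluster 4 had the highest median depth of tumor 2, 2870 UMIs. To separate depth from level, each cell with at least 1000 UMIs was drawn down to 1000, and cells with at least 5 UMIs of a list of 16 G2 and M phase genes were compared with the rest. In tumor 2, *Nfib* had 183 UMIs in 678 such cells (270 CPM) and 453 in 2341 others (194 CPM), a log2 ratio of 0.48 (0.22 to 0.73). In tumor 1 it had 34 UMIs in 216 cells (157 CPM) and 183 in 1204 others (152 CPM), a log2 ratio of 0.05 (-0.52 to 0.58). A second random draw gave 0.37 (-0.16 to 0.88) in tumor 1 and 0.30 (0.04 to 0.56) in tumor 2, so the order of the tumors turned with the draw. In tumor 2 the intervals of both draws lay above 0, in tumor 1 they held 0, and a difference between the tumors was not tested. Near the limit, with 4 to 6 UMIs of the list, lay 61 cells of tumor 1 and 399 of tumor 2.

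The ratio of *Nfic* depended on the draw. In tumor 2 it had 7 UMIs in cells high for the G2 and M list (10.3 CPM) and 55 in the others (23.5 CPM), a log2 ratio of -1.19 (-2.57 to -0.05), but the second draw gave 11 and 44 UMIs and a ratio of -0.23 (-1.33 to 0.75). In tumor 1 its ratio was -0.55 (-1.55 to 0.32), from 12 and 98 UMIs. The ratios of *Nfix* were 0.24 (-0.85 to 1.19) in tumor 1 and 0.22 (-0.13 to 0.57) in tumor 2. At least 2-fold higher in such cells were 8.80% of 9583 genes in tumor 1 and 5.61% of 10108 in tumor 2, and at least 2-fold lower 15.4% and 8.28%. Of the members with at least 10 UMIs, 0 were higher by that much in either tumor and 1, *Nfic* in tumor 2, was lower, which the second draw did not give. For a list of 14 S phase genes, all intervals of *Nfib*, *Nfic* and *Nfix* held 0, with log2 ratios of 0.46 (-0.32 to 1.17) and 0.68 (-0.20 to 1.50) for *Nfic*. *Nfia* had 0 UMIs in the 614 cells of tumor 2 high for that list and 17 in 2405 others (7.07 CPM). The upper bound of that log2 ratio was -0.08, and in tumor 1 *Nfia* had 2 and 7 UMIs. No second draw was made for the S phase list. Without drawing down, cluster 3 of tumor 2, led by *Rrm2*, *Fst* and *2810417H13Rik*, had 13 *Nfia* UMIs (14.4 CPM, 7.66 to 24.6). All neuroendocrine-like cells of tumor 2 had 9.54 CPM, so a lower *Nfia* level in S phase was not shown. Cluster 5 of tumor 1, led by the S phase genes *2810417H13Rik*, *Ccne2* and *Asf1b*, had the highest *Nfic* level of any cluster, 160 CPM (129 to 196).

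That cluster also held the cell with most *Nfic*. It had 15 *Nfic* UMIs of 2406, where the next neuroendocrine-like cell had 6, and without it the cluster had 134 CPM, still the highest of the neuroendocrine-like clusters. For *Nfib*, the highest neuroendocrine-like cells had 4 UMIs in tumor 1 and 11 in tumor 2, for *Nfix* 3 and 5, and for *Nfia* 2 and 4. Most retained cells had no UMI of a given member: 2659 of 3193 in tumor 1 and 2445 of 3568 in tumor 2 had none of *Nfib*.

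At the fixed depth of 1000 UMIs, 1420 neuroendocrine-like cells of tumor 1 and 3019 of tumor 2 could be compared, and 618 and 361 shallower cells were left out. A UMI of *Nfib* was found in 13.7% (12.0 to 15.6) and 18.0% (16.6 to 19.4). For *Nfic* the shares were 6.62% (5.38 to 8.04) and 1.92% (1.46 to 2.48), for *Nfix* 4.23% (3.24 to 5.41) and 10.8% (9.74 to 12.0), and for *Nfia* 0.563% and 0.530%. Without drawing down, the shares of *Nfib* were 17.5% and 32.7%, those of *Nfic* 9.13% and 3.82%, those of *Nfix* 5.54% and 20.4% and those of *Nfia* 0.932% and 1.83%. At least 1 member was seen in 23.1% (20.9 to 25.4) of cells of tumor 1 and in 28.5% (26.9 to 30.1) of tumor 2. At this depth a cell without a UMI cannot be taken to lack the RNA.

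In the macrophage-like cells at the same depth, *Nfib* was found in 4.88% (1.34 to 12.0) of 82 cells of tumor 1 and in 5.36% (1.99 to 11.3) of 112 cells of tumor 2. The shares of *Nfic* there were 6.10% (2.01 to 13.7) and 2.68% (0.556 to 7.63), and those of *Nfix* 3.66% (0.761 to 10.3) and 5.36% (1.99 to 11.3). The median depth before drawing down was 1433 UMIs in these cells of tumor 1 and 1718 in tumor 2, against 1393 and 2107 in the neuroendocrine-like cells. Thus *Nfib* was seen in a larger share of neuroendocrine-like than of macrophage-like cells, with intervals that met at 12.0% in tumor 1 and did not overlap in tumor 2. The intervals of *Nfic* and *Nfix* overlapped those of macrophage-like cells in both tumors, which does not show that the shares are equal. For *Nfix* in tumor 2, the log2 ratio of CPM over all cells of the 2 types was 1.19 (0.38 to 2.15).

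**Figure D4:**
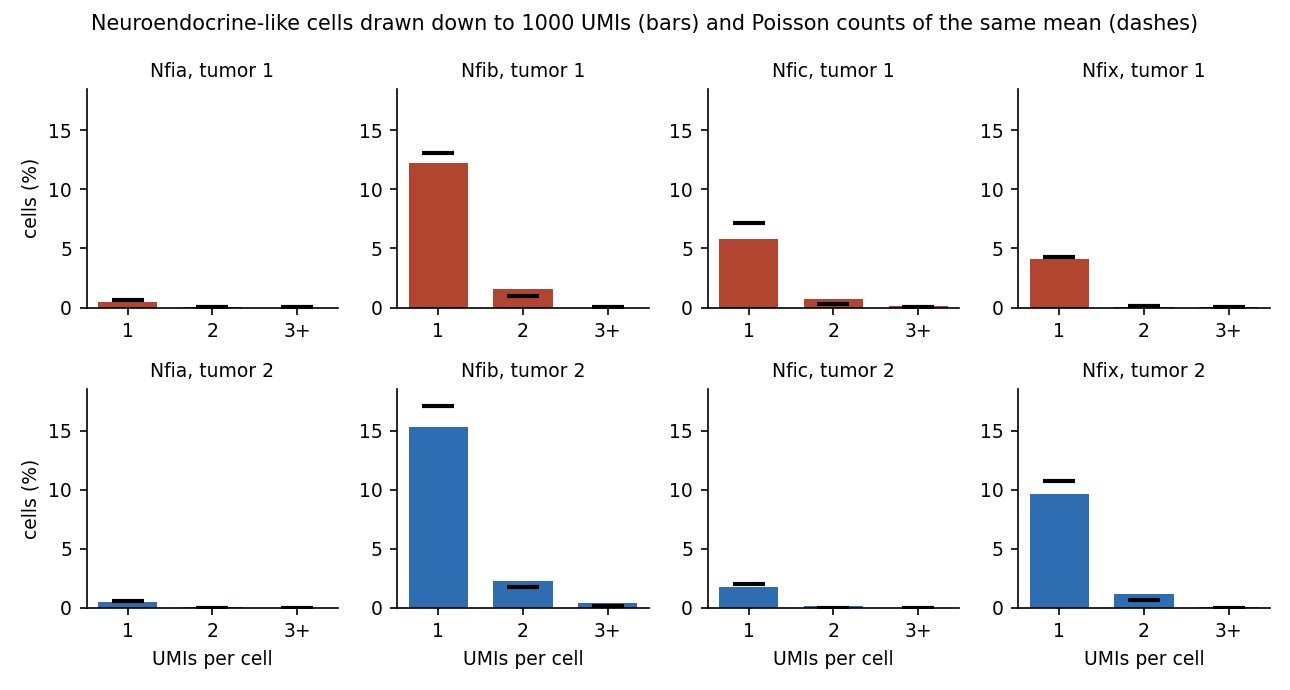
Percent of neuroendocrine-like cells with 1, 2 or at least 3 UMIs of each member after each cell was drawn down to 1000 UMIs, in tumor 1 (red bars, 1420 cells) and tumor 2 (blue bars, 3019 cells). Black dashes are the percent that a Poisson distribution of the same mean gives: for *Nfib* in tumor 2, 0.431% of cells had at least 3 UMIs and the Poisson value is 0.133%.

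Counts of *Nfib* per cell were set beside those of a Poisson distribution. In tumor 1, 173 cells had 1 UMI and 22 had 2, where 186 and 14.2 would follow from the mean, and 0 had 3 or more. In tumor 2, 461 cells had 1, 68 had 2 and 13 had 3 or more, where the mean gives 515, 54.3 and 4.02. The Fano factor, the variance over the mean, which is 1 for Poisson counts, was 1.05 in tumor 1 and 1.13 in tumor 2. Among genes averaging 0.05 UMIs per cell or more, that of *Nfib* ranked above 5.83% of 3570 genes in tumor 1 and above 64.8% of 2970 in tumor 2, where the medians were 1.17 and 1.10. Another random draw gave *Nfib* a factor of 1.16 in tumor 1. *Nfic* in tumor 1 had a factor of 1.34, above 87.1% of genes, and 1.17 without the cell with 15 UMIs. *Nfix* in tumor 2 had 1.09, above 40.7%. Genes were not matched by mean, so these ranks do not compare spread at equal level.

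Members were seen together about as often as their shares give. *Nfib* and *Nfix* were both present in 64 cells of tumor 2, or 2.12% (1.64 to 2.70), and the product of their shares is 1.94%, or 58.7 cells. *Nfib* and *Nfic* were both present in 14 cells of tumor 1, or 0.986% (0.540 to 1.65), where the product is 0.909%. For the other pairs, 7 or fewer cells in tumor 1 and 9 or fewer in tumor 2 had both, and every interval held the product.

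Between cell types, *Nfib* was higher in neuroendocrine-like than in macrophage-like cells. In tumor 1 it had 155 CPM against 42.0 CPM (15.4 to 91.3, 6 UMIs), a log2 ratio of 1.88 (0.75 to 3.34), and in tumor 2 221 CPM against 93.2 CPM (57.7 to 143, 21 UMIs), a log2 ratio of 1.24 (0.63 to 1.94). With so few UMIs the size of the tumor 1 ratio moved, to 2.83 without the barcodes of highest doublet score and to 2.45 without the macrophage-like cell with most *Nfib*. *Nfix* had log2 ratios of 0.32 (-0.94 to 1.97) in tumor 1, from 5 UMIs in macrophage-like cells, and 1.19 (0.38 to 2.15) in tumor 2. *Nfic* had -0.30 (-1.05 to 0.56) and -0.72 (-1.80 to 0.62), and *Nfia* -0.92 (-2.96 to 2.21) and 0.10 (-1.80 to 3.18), with 2 *Nfia* UMIs in the macrophage-like cells of either tumor. At least 2-fold higher in neuroendocrine-like cells were 1 of 4 members in tumor 1, where 44.6% of genes were, and 2 of 4 in tumor 2, where 39.5% were. At least 2-fold higher in macrophage-like cells were 0 of 4 in both, where 11.8% and 16.0% of genes were. Over all tested genes the medians were 0.78 and 0.62, higher than the ratios of *Nfic* and *Nfia* in both tumors.

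RNA released from tumor cells can reach other droplets, so the levels of neuroendocrine markers in macrophage-like cells were set beside those of the members. Doublets can also bring such RNA, so these levels do not measure released RNA alone. The 15 such markers over 100 CPM in tumor 1 stood in macrophage-like cells at a median of 21.0% of their neuroendocrine-like level (7.57% to 39.0%), and the 5 in tumor 2 at 29.8% (23.9% to 40.2%). *Nfib* stood at 27.1% and 42.2%, within that range in tumor 1 and just above it in tumor 2. The part of released RNA and of doublets in these values was not tested. *Nfix* stood at 80.3% in tumor 1 and 43.7% in tumor 2, and *Nfic* at 123% and 165%, above the range. Of the 15 *Nfic* UMIs in macrophage-like cells of tumor 1, 7 came from 1 cell, and the level without it was 56.5 CPM (24.4 to 111), a log2 ratio of 0.59. In tumor 2, 7 of 21 *Nfib* UMIs came from 1 macrophage-like cell, and without it the level was 63.6 CPM (34.8 to 107), or 28.8% of the neuroendocrine-like level. Without the macrophage-like cell with most *Nfix*, 3 of 12 UMIs, *Nfix* in tumor 2 stood at 40.9 CPM (18.7 to 77.6), or 33.5%. The cell left out had 5080 UMIs in all, for *Nfib* and for *Nfix* alike. Both percentages lay within the range of the markers over all macrophage-like cells. *Nfic* without its highest cell lay above that range, at 66.4% and 119%. The range was not computed without the cells left out, so these are comparisons of unlike sets of cells. The 105 club-like cells of tumor 1 had 122 CPM of *Nfib* (78.2 to 182), 71.2 CPM of *Nfic* (38.9 to 119) and 81.4 CPM of *Nfix* (46.5 to 132).

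Genes that NFI proteins are known to act on were compared between the tumors from a list of 13 genes of the nervous system, 8 of them with at least 10 UMIs. Of these, 2 were at least 2-fold higher in tumor 1 and 3 in tumor 2, against 30.0% and 12.3% of all genes, with a median log2 ratio of -0.37 where all genes have 0.36. Of the latter, *Mmd2* had 0 UMIs in tumor 1 and 10 in tumor 2, and it was under 2-fold with 0 taken as 3 UMIs, an alternative added later, and 2 such genes were counted. When genes needed 50 UMIs to enter, the median of the list was 0.19, so its sign changed. NFI proteins can raise or lower transcription, and the list was not split by direction. Its median and counts are therefore not a measure of NFI activity. *Hes1*, a repressor in the Notch pathway and a target of *Nfia* in neural progenitors, had 73.6 CPM in tumor 1 and 18.1 in tumor 2. *Ezh2*, which methylates histone H3 and is a target of *Nfib* in the developing cortex, had 82.3 and 141 CPM. *Efnb1*, an ephrin, had 17.3 and 4.07 CPM, and *Slc1a3*, a glial glutamate transporter, 0.219 (1 UMI) and 5.06 CPM. *Fabp7*, a lipid-binding protein of radial glia, had 1.97 and 8.76 CPM, and *Gfap*, an astrocyte filament, had 0 UMIs in both.

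Of 6 lung maturation genes that depend on *Nfib* in development, 4 had at least 10 UMIs and all 4 were at least 2-fold higher in tumor 1 (all genes: 30.0%), with a median log2 ratio of 4.34. *Scgb1a1*, the club cell secretory protein, had 11282 CPM over all retained cells of tumor 1 and 879 CPM in tumor 2, and *Sftpb*, a surfactant protein, 95 and 2.96 CPM. Tumor 1 held the 105 club-like cells. In tumor 2, cluster 9 had 7 of 8 club markers at least 4-fold above the other cells. Of the 7123 *Scgb1a1* UMIs of tumor 2, 141 were in neuroendocrine-like cells. In neuroendocrine-like cells alone *Scgb1a1* had 445 and 18.2 CPM and *Sftpb* 2.81 and 0.129 CPM. The summed club markers had 546 CPM in neuroendocrine-like and 406 CPM in macrophage-like cells of tumor 1. In tumor 2 they had 26.9 and 222 CPM. *Aqp5*, a water channel of alveolar type 1 cells, had 14.2 and 1.36 CPM over all retained cells, but 1 and 2 UMIs in the neuroendocrine-like cells. The part of club-like cells in the difference between tumors was not tested. *Nfib* itself was 1.46-fold higher in tumor 2 over all retained cells, and whether this bears on these genes was not tested.

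Of 13 genes of adhesion and of the epithelial or mesenchymal state, 10 had at least 10 UMIs, 5 were at least 2-fold higher in tumor 1 and 1 in tumor 2, against 30.0% and 12.3% of all genes (22.4% and 18.4% with TMM factors), with a median log2 ratio of 0.91. In neuroendocrine-like cells *Cdh1*, the epithelial cadherin, had 266 CPM in tumor 1 and 16.8 in tumor 2, *Krt18*, an epithelial keratin, 2959 and 170 CPM, and *Epcam*, an epithelial adhesion molecule, 1361 and 414 CPM. *Zeb2*, a repressor of *Cdh1*, was at 0 UMIs in tumor 1 and at 218 UMIs (28.1 CPM) in tumor 2, again in neuroendocrine-like cells. Its relative *Zeb1* had 28.1 and 11.9 CPM, and *Cdh2*, the neural cadherin, 59.4 and 49.5 CPM. Tumor 2, which had more *Nfib* and *Nfix*, had less *Cdh1* and more *Zeb2*, but also less *Zeb1*. With 2 tumors no relation between these genes can be computed.

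Across the 9 clusters of tumor 1 and the 10 of tumor 2, after centring within each tumor, the genes most like each member were ranked by the correlation of their log2 CPM, for members with at least 100 UMIs in each tumor. An offset of 10 CPM was added before the log, and genes with at least 50 CPM in some cluster entered. Most like *Nfib* among these 6204 genes were *Auts2* (Pearson r = 0.914), *Tcf4* (0.905), *Fiz1* (0.897), *Dcps* (0.896) and *Brd3* (0.882). *Tcf4*, a basic helix-loop-helix factor, ran from 21.0 to 88.6 CPM over clusters of tumor 1 and from 74.0 to 227 CPM in tumor 2. The clusters included macrophage-like, club-like and unnamed ones, so the correlations do not describe neuroendocrine-like cells alone. *Nfib* itself was lowest in the macrophage-like cluster of tumor 1 (42.0 CPM, 6 UMIs) and in cluster 9 of tumor 2 (74.0 CPM, 9 UMIs). Most like *Nfic* were *Arhgap1* (0.847), *Srxn1* (0.839) and *Cnpy3* (0.715), and most like *Nfix* *2310057M21Rik* (0.768), *Kbtbd2* (0.757) and *Etnk1* (0.755). Among the members, r was -0.532 for *Nfib* with *Nfic*, 0.298 for *Nfib* with *Nfix* and -0.243 for *Nfic* with *Nfix*. The 19 clusters share libraries, depth and the free RNA of their tumor, and the clusters were made from the same counts, so these are descriptions.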

How the data were processed

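Single-cell RNA-seq was measured in 1 library from each of 2 mouse tumors. The authors deposited UMI counts per gene and barcode, whole numbers that were not normalized. The submitters' processing notes name Cell Ranger, Seurat and the build mm10, and versions are not given in the sources used here. Positions, transcripts and coding sequences were taken from GENCODE M21 (GRCm38), which held 27645 of the 27998 identifiers, and coding sequences were aligned with MAFFT 7.526.

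Barcodes over 500 detected genes and under 10% mitochondrial UMIs were retained and clustered per tumor in Seurat 5.3.0 (R 4.3.3), with 1000 variable genes, 10 principal components and a resolution of 0.8. A cluster took a name other than neuroendocrine-like from at least 3 markers at least 4-fold above the other cells, of which at least 3 were among its 10 leading genes. It was neuroendocrine-like with at least 3 such markers at least 2-fold above macrophage-like cells, unless another type's markers were as many by the 4-fold rule or more frequent among its leading genes. This naming rule was set after the clusters were seen. Scrublet (scanpy 1.11.5) called 0 doublets in either tumor. Doublets were therefore kept, and the highest 5% of scores, 109 and 127 barcodes, were removed as an alternative. TMM factors came from edgeR 4.0.16 and no test of it was used, since each tumor has 1 library.

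Python 3.11.15 (pandas 2.3.3, scipy 1.17.1, numpy 2.4.6) gave CPM, ratios and their exact 95% intervals. Cells were drawn down to 1000 UMIs without replacement (seed 1). Genes needed 10 UMIs over both sides of a comparison. As a level, a count of 0 was taken to allow 3 UMIs. In the shares and counts of genes past 2-fold, a gene with 0 UMIs on either side was counted as past 2-fold, unless an alternative is named. The steps were tested on simulated data.

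Genes named are the members, their neighbours within 2 Mb, members of the lists, the 3 leading genes of a cluster, cell type markers, *Mycl* and *Mycn*, the genes most like a member, and genes whose span overlaps a member, added later. The members and lists were chosen with earlier results of these data known. Alternatives covered the filters, scaling, depth, clustering, doublets and distances.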

Additional observations from a re-analysis of the deposited data

Results flagged for a closer look

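Barcodes with 500 or fewer detected genes, of which those over 200 entered only an alternative of the tumor ratios, also held UMIs of the members. In the 1321 such barcodes of tumor 1, *Nfib* had 113 CPM (exact Poisson 95% interval 89.5 to 140), *Nfic* 59.9 CPM (43.3 to 80.6) and *Nfix* 34.8 CPM (22.5 to 51.4). In the 248 of tumor 2, *Nfib* had 96.7 CPM (57.3 to 153) and *Nfix* 75.2 CPM (41.1 to 126), while *Nfic* had 0 UMIs. The order of *Nfic* and *Nfix* in each tumor was that of the retained barcodes.

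Log2 ratios of *Nfia* had opposite signs in the tumors, from few UMIs. Its log2 ratio of neuroendocrine-like to macrophage-like cells was -0.92 (-2.96 to 2.21) in tumor 1 and 0.10 (-1.80 to 3.18) in tumor 2. Its log2 ratio of cells high for the G2 and M list to the other cells was 2.16 (-0.18 to 4.37) in tumor 1, from 4 and 5 UMIs, and -0.43 (-2.87 to 1.41) in tumor 2, from 3 and 14. The signs depended on single cells and on the draw. Without the macrophage-like cell with most *Nfia*, the first ratio was 0.06 and 1.09. With a second random draw the other was 0.91 and 0.33, and with at least 3 UMIs of the list it was 1.62 and 0.36. Each of the intervals holds 0, and the differences between the tumors were not tested.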

How the results depend on the processing

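With 1 library per tumor no value has a replicate. No paired analysis was possible because the result comes from no test. Of 204 values computed under alternatives, 148 lay within the interval of the value reported, or within 1.5 times a count, and the others outside it. The sign changed in 8, of which 4 lay outside the interval. The signs of the log2 ratios of tumor 1 to tumor 2 of *Nfib*, *Nfic* and *Nfix* held under every alternative run. With TMM factors they were -0.91, 1.70 and -1.57, a shift of the median gene from 0.36 to 0, and with totals that left out genes of mitochondria and ribosomal proteins *Nfib* was at -0.77 and *Nfix* at -1.42. In barcodes with more than 1000 detected genes *Nfic* was at 2.46, and in neuroendocrine-like cells alone *Nfix* was at -1.48. TMM factors turned the median of the neighbours of *Nfic* to -0.03 and moved that of the neighbours of *Nfix* to -0.26. Shares of cells follow depth: *Nfib* was seen in 7.75% and 8.96% of cells of tumor 1 and tumor 2 at 500 UMIs, in 26.0% and 33.5% at 2000 UMIs, and in 17.5% and 32.7% without drawing down. Its Fano factor was 1.15 and 1.23 at 2000 UMIs and 1.16 in tumor 1 with another seed. The median of the nervous system list was 0.19 with at least 50 UMIs per gene, against -0.37. The lung maturation list was at 3.98 with TMM factors and 5.15 in neuroendocrine-like cells, where 2 of its genes had at least 10 UMIs and 1 of these had 0 in tumor 2, and the adhesion list at 0.55 and 1.24. Added after the values were seen, leaving out the macrophage-like cell with most *Nfic* UMIs moved the log2 ratio of neuroendocrine-like to macrophage-like cells of tumor 1 from -0.30 to 0.59. The cause was not tested. The low *Nfix* of cluster 6 of tumor 1 was at -4.02 and -4.18 at other resolutions and at -3.93 without the highest Scrublet scores, alternatives also added later. Counting clusters 1 and 2 of tumor 1 as neuroendocrine-like, leaving out cluster 9 of tumor 2 and leaving out cluster 6 of tumor 1 moved no share or ratio of a member out of its interval.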
